A study of Mus musculus with 12 samples.

Results

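The genes described here encode the proteins of the cytosolic ribosome. They were taken by symbol, as every row whose name was Rpl or Rps followed by a number and optional letters, together with Rplp0, Rplp1, Rplp2 and Rpsa, and without names holding "-ps". The rule found 86 genes among the 16699 listed in both count tables, 51 named for the large subunit and 35 for the small subunit. The annotation calls 81 of them protein-coding and 5 processed pseudogenes, namely Rpl32l, Rpl6l, Rps12l1, Rps3a2 and Rps3a3.

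A cytosolic ribosome holds one copy of most of these proteins, so cells make them in concert. The mRNAs are among the most abundant in a dividing cell and are short and spliced, and most begin at a cytosine inside a run of pyrimidines. Such 5′ terminal oligopyrimidine (TOP) mRNAs are controlled mainly at translation, through mTORC1 and the RNA-binding protein Larp1, so their mRNA level reports only a part of ribosomal protein synthesis. Mammalian genomes also hold many processed copies of these mRNAs, which makes the assignment of reads harder than for most genes.

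The study used J774A.1 cells, a mouse macrophage line. The wild-type (WT) cells carried a CRISPR-Cas9 vector with no guide, and the ACAT1 KO cells were made with a guide to exon 4 of Acat1, which encodes a mitochondrial acetyl-CoA acetyltransferase. Cells were left unstimulated or were given 100 ng/ml lipopolysaccharide (LPS) for 2 h, with 3 libraries in each of the 4 groups. Each genotype was expanded as clonal populations from sorted, GFP-positive cells, and the libraries of a genotype came from different lines, so that the spread between libraries includes that between lines. Nothing in the labels says that the unstimulated and the LPS libraries were prepared together, and they were deposited in separate tables.

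Library totals were 56948593 to 127263834 counts in the unstimulated and 96704955 to 167280149 counts in the LPS libraries. Acat1 was at 108, 107 and 80.8 CPM (the count scaled to the normalized library total) in unstimulated WT and at 28.9, 25.5 and 26.1 CPM in unstimulated ACAT1 KO cells, and after LPS at 85.4, 95.4 and 65.0 CPM in WT and 19.9, 18.5 and 18.9 CPM in ACAT1 KO cells, so it was lower in every library labelled KO. The 10 macrophage markers summed to 8848 to 11950 CPM in every library, and no list of markers of another cell type summed to more than 12.95 CPM. That highest sum was of the fibroblast list, of which 1 of 5 markers was in the fit: it summed to 1.14 to 1.67 CPM unstimulated, 5.53 to 6.48 CPM in LPS-treated WT and 11.3 to 12.95 CPM in LPS-treated ACAT1 KO libraries, and its part in the results was not tested. WT replicates 1 and 2 and ACAT1 KO replicate 2 of the unstimulated libraries stood apart: 0.0136 to 0.0209% of their counts fell on a set of 53 genes antisense to other genes, against 0.00221 to 0.00334% in the other 9 libraries. WT replicate 1 unstimulated also had 9.32% of its counts on mitochondrial genes, against 2.14 to 4.04% in the other 11 libraries.

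The start of the transcript was read from RefSeq (GRCm38.p6) for the 61 protein-coding members with an entry. A start was called TOP-like where a C lay at the annotated start or at most 2 bases from it and was followed by at least 4 pyrimidines (C or T), read on the strand of the gene. Counting any start of a gene in that table, a TOP-like one was found for 21 of the 61 members (34.4%) and for 10.6% of all 27025 genes in the same table. The annotated start can lie some bases away from the one used in these cells, so no match says only that the letters were not in this window. The 12 windows shown are those of members named in the results, from 15 bases before the start to 15 from the start on, with the pyrimidine tract in capitals.

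Rpl12: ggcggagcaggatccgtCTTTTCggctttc
Rpl13a: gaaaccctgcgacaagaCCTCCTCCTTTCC
Rplp2: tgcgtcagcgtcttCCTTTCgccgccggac
Rps6: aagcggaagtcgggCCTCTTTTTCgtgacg
Rps10: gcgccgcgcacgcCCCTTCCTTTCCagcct
Rps21: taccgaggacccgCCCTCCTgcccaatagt
Rps27: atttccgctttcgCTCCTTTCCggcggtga
Rps27l: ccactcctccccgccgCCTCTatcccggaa
Rpl7l1: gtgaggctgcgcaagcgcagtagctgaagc
Rpl22: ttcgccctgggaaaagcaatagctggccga
Rpl41: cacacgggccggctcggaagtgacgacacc
Rps26: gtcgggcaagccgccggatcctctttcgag

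The first 8 of these held a TOP-like start and the last 4 did not. All windows span the annotated start of the first exon. Among those with a tract, Rps27 (chr3:90213634-90213663, minus strand) had one of 9 pyrimidines and Rps27l (chr9:66946071-66946100, plus strand), the paralogue of Rps27, one of 5. One of 12 pyrimidines was in Rps10 (chr17:27635230-27635259, minus strand). The others lay at Rpl12 (chr2:32961697-32961726, plus strand), Rpl13a (chr7:45128731-45128760, minus strand), Rplp2 (chr7:141447636-141447665, plus strand), Rps6 (chr4:86857353-86857382, minus strand) and Rps21 (chr2:180257364-180257393, plus strand). Those without a tract lay at Rpl7l1 (chr17:46782642-46782671, minus strand), Rpl22 (chr4:152325711-152325740, plus strand), Rpl41 (chr10:128549154-128549183, minus strand) and Rps26 (chr10:128626492-128626521, minus strand), and in Rps26 the pyrimidines lay further downstream than the rule allowed.

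Levels among the members ran over several orders of magnitude. CPM below are normalized over the 12 libraries with edgeR's trimmed mean of M values (TMM), and levels of different genes are compared only per kb of the principal mRNA. The median over the 81 protein-coding members was 936 CPM per kb, with quartiles of 609.9 and 1277 CPM per kb. Rplp1, an acidic protein of the stalk that recruits elongation factors, was highest at 3429 CPM per kb over the 4 groups, followed by Rpl32 at 2438 CPM per kb and Rps27 at 2324 CPM per kb. The SD of Rplp1 between the 3 unstimulated WT libraries was 237.5 CPM per kb and that of Rpl32 and Rps27 was 315 and 324 CPM per kb, so Rplp1 lay above both by more than its spread and the latter were not separated from each other.

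Near the other end lay 3 protein-coding members. Rps10, a protein of the small subunit, was at 7.78 CPM per kb, Rpl24, a protein of the large subunit, at 4.33 CPM per kb and Rpl13a, also part of the interferon gamma-activated inhibitor of translation, at 59.3 CPM per kb. Of the 86 members, these 3 were the only ones whose principal mRNA had exon bases inside another annotated gene of the same strand: 53.6% for Rps10, within RPS10-NUDT3, 71.5% for Rpl24, within Gm28037, and 59.3% for Rpl13a, within Gm45713. None of those overlapping genes was listed in both tables, so the reads that belong to either gene cannot be recovered here, and all values of these 3 members are uncertain. Lower than all 3 were only Rpl3l, the paralogue of Rpl3 typical of striated muscle, at 1.83 CPM per kb, and the pseudogene Rps12l1, at 0.249 CPM per kb.

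Sequence shared with other transcripts was common among the members. Over the 81 protein-coding members, the median share of 100-base stretches of the principal mRNA that also occurred in a transcript of another gene was 31.8%, and 7 members had none. The 27 members with at least 50% shared included Rps27 (98.4%), Rps6 (83.6%) and Rpl3 (79.4%). These 27 had a median level of 1065 CPM per kb and the other 54 one of 837 CPM per kb, so a high shared fraction did not go with a low level. The rows named as ribosomal protein pseudogenes, with "-ps" in the name, took 0.0839 to 0.117% of the counts of a library. Processed copies under other names are not in this share. Such a copy can hold many reads: Gm15772, a processed copy of Rpl26, was at 538 CPM, while Rpl26 itself was at 193, 145 and 150 CPM in unstimulated WT libraries. Gm8730, a processed pseudogene sharing 6.27% of the 100-base stretches of Rplp0, was at 638 CPM, and Rplp0 at 1406 CPM, over the 12 libraries.

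The order of the members hardly changed between libraries. Spearman's rho of the 86 levels was at least 0.957 over all 66 pairs of libraries, a description across genes that all share the same annotation. After the median over members was subtracted in each library, 72 of the 86 members had an SD over the 12 libraries under 0.2 on the log2 scale. Rps10 varied most, with an SD of 0.94 log2 units, followed by Rpl7l1 at 0.56 and Rpl3l at 0.44. Least variable were Rpl21, Rps23 and Rps3a1, named here for that rank after their values were seen, with SDs of 0.043 to 0.047.

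The first comparison asked how the share of the transcriptome given to these genes differed between states. In unstimulated cells the 86 members took 7.37, 7.06 and 8.12% of all counts in the 3 WT libraries and 8.19, 7.41 and 7.90% in the 3 ACAT1 KO libraries. After LPS they took 6.12, 5.90 and 5.61% in WT and 5.81, 5.61 and 5.70% in ACAT1 KO libraries. All LPS libraries lay below all unstimulated libraries, and the genotypes overlapped in both states.

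The mean share went from 7.52% ± 0.545 (SD, n = 3) to 5.88% ± 0.255 (SD, n = 3) in WT cells, a difference of -1.64 percentage points. It went from 7.84% ± 0.394 (SD, n = 3) to 5.71% ± 0.0984 (SD, n = 3) in ACAT1 KO cells, a difference of -2.13 percentage points. An exact permutation test (two-sided, 3 against 3 libraries) gave p = 0.1 for each, the smallest p this design allows, and 0.2 after Benjamini-Hochberg adjustment over the 4 comparisons of groups. Between genotypes the difference was 0.318 percentage points unstimulated and -0.168 after LPS, both with p = 0.4 by the same exact test. With 1 library left out these differences ran from 0.0912 to 0.620 and from -0.301 to -0.0462 percentage points. The 3 libraries with more antisense counts had the lowest shares of the unstimulated cells, 7.06 to 7.41% against 7.90 to 8.19% in the other 3, and the difference of ACAT1 KO less WT was 0.197 percentage points within the former and -0.0746 within the latter. Without mitochondrial counts the share of WT replicate 1 unstimulated was 8.12% in place of 7.37%.

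**Figure D1:**
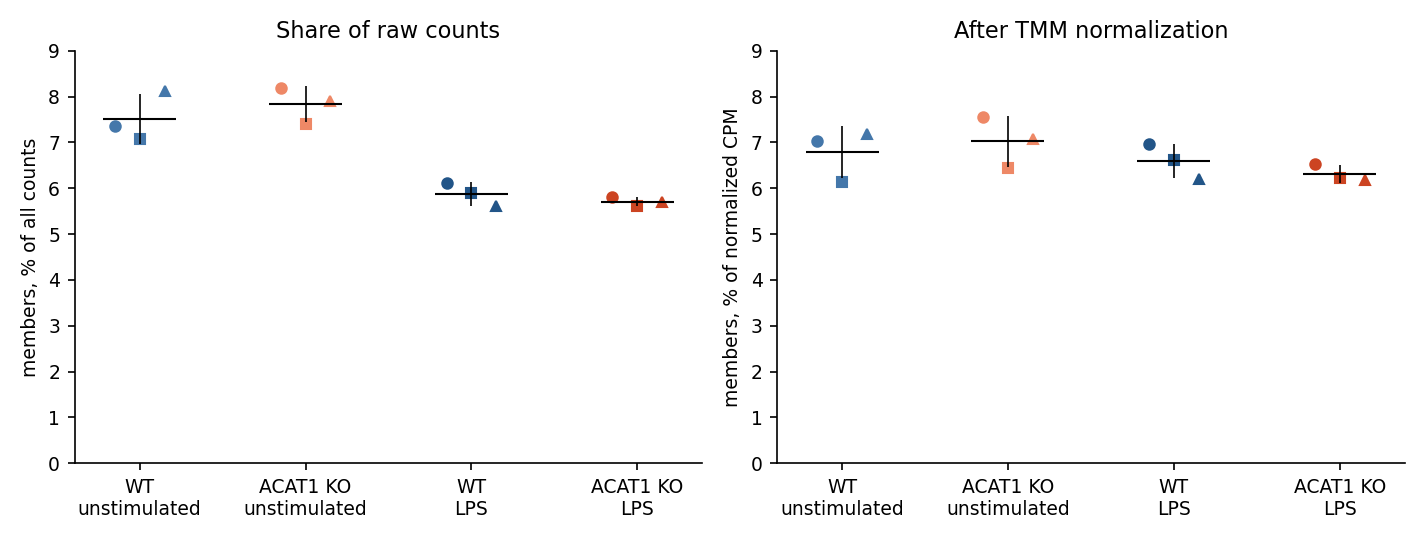
Ribosomal protein genes as a percentage of counts in each of the 12 libraries, on the left of the raw counts and on the right of TMM-normalized CPM; points are libraries (circle, replicate 1; square, 2; triangle, 3), horizontal lines group means and vertical lines the SD. The raw shares after LPS (5.61 to 6.12%) all lie below the unstimulated ones (7.06 to 8.19%), while the normalized sums overlap.

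The size of this difference depends on the scale. TMM, which sets most genes to no change, gave the unstimulated libraries factors of 1.05 to 1.15 and the LPS libraries factors of 0.879 to 0.924. On that scale the members summed to 6.14 to 7.55% of CPM in unstimulated and 6.17 to 6.96% in LPS libraries. The median log2 fold change of the members was -0.01 in WT with TMM and -0.33 with library totals only, and that of all 16535 genes tested moved by as much, from -0.02 to -0.33. In ACAT1 KO cells the members' median moved from -0.14 to -0.44 and that of all genes from -0.03 to -0.33. With TMM and 1 library left out, the members' median ran from -0.09 to 0.05 in WT and from -0.22 to -0.06 in ACAT1 KO cells, and with a term for the 3 libraries with more antisense counts it was -0.16 and -0.20.

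Gene by gene, 13 members were lower and 2 higher after LPS in WT cells, called with the quasi-likelihood test of edgeR at a Benjamini-Hochberg adjusted p under 0.05 over all genes tested. Over all genes tested, 28.0% were called lower and 29.3% higher, beside 15.1% and 2.33% of the members. In ACAT1 KO cells 27 members were lower and 4 higher, or 31.4% and 4.65%, beside 31.2% and 29.5% of all genes. The 13 members lower in WT cells were all among the 27 lower in ACAT1 KO cells, which is 100% of the first and 48.1% of the second list. Both lists came from the same fit, and the overlap over all genes is not given here. Whether the members overlapped more than other genes therefore cannot be read from these shares. With library totals only, 68 members were lower and 2 higher in WT, and 74 lower and 2 higher in ACAT1 KO cells. On that scale 7697 of all 16535 genes were lower and 3037 higher in WT, and 7816 lower and 3074 higher in ACAT1 KO cells. Leaving out WT replicate 1 unstimulated, WT replicate 2 after LPS or WT replicate 3 after LPS took the number called in WT from 15 to 7 each time.

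**Figure D2:**
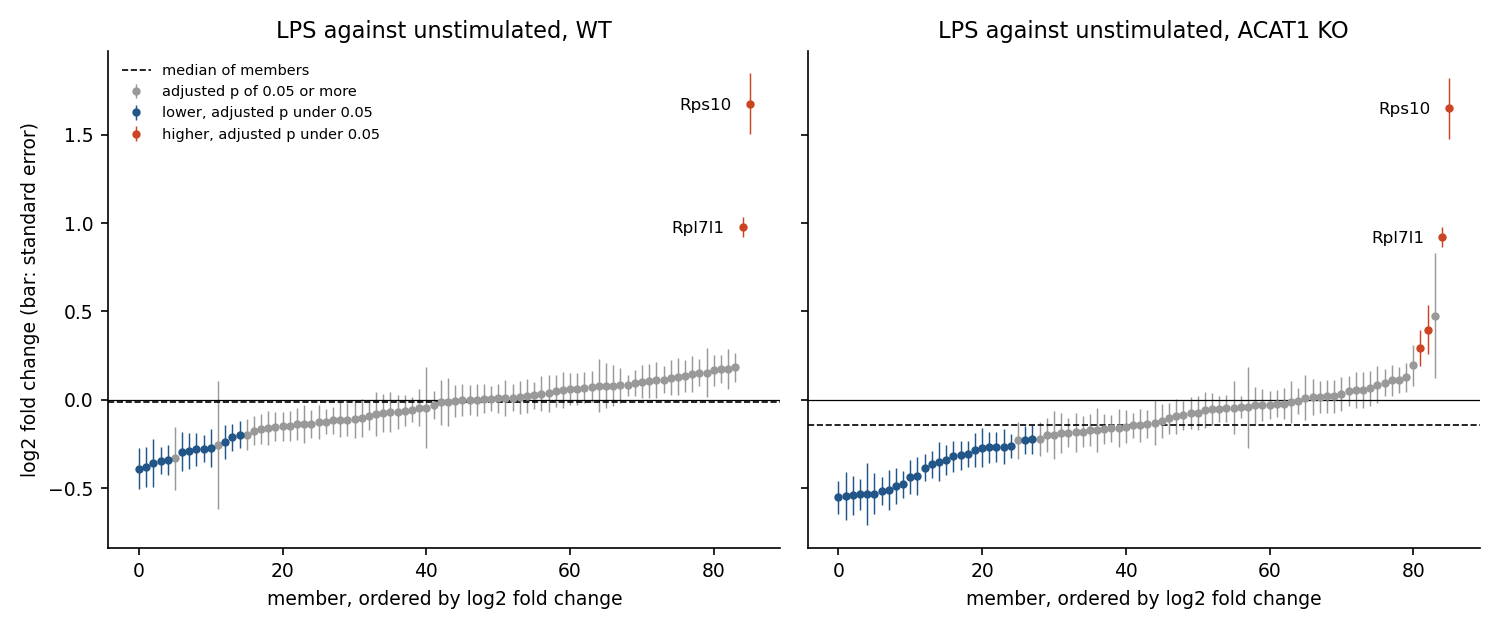
Log2 fold change after LPS of the 86 members, ordered by value, in WT (left) and ACAT1 KO cells (right), with standard errors, TMM scale; colours mark members with an adjusted p under 0.05 and the dashed line the members' median. Rps10 and Rpl7l1 stand above all other members in both genotypes, at log2 fold changes of 1.67 and 0.98 in WT, while most others lie within 0.5 of 0.

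Rpl7l1, a paralogue of Rpl7 found in nucleolar pre-ribosomes, rose most among the members whose reads are not in doubt. It was at 146, 137 and 141 CPM in unstimulated WT and at 291, 281 and 263 CPM in LPS-treated WT libraries. In ACAT1 KO cells it was at 154, 146 and 158 CPM before and at 294, 289 and 283 CPM after LPS. No LPS library overlapped an unstimulated one. The log2 fold change was 0.98 (SE 0.0565, edgeR adjusted p = 4.16e-08) in WT and 0.92 (SE 0.0564, edgeR adjusted p = 5.54e-08) in ACAT1 KO cells, and stayed at 0.62 or above under each alternative tried, library totals included.

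Rps10 had the largest fold change, with a level far under that of other members. It went from 3.61, 2.62 and 3.78 CPM to 12.3, 10.1 and 9.62 CPM in WT cells, and from 3.89, 2.60 and 3.35 CPM to 11.1, 10.1 and 9.73 CPM in ACAT1 KO cells, without overlap. The log2 fold change was 1.67 (SE 0.173, edgeR adjusted p = 5.15e-06) in WT cells. Whether this is a change of Rps10 mRNA or of reads divided between Rps10 and RPS10-NUDT3 cannot be told apart, since the latter was not listed.

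The members lowered in both genotypes included the ubiquitin fusion Rps27a, the platform protein Rps14, the exit tunnel protein Rpl39, the stalk base Rpl12 and both members of the pairs Rpl22 with Rpl22l1 and Rps27 with Rps27l. In WT the call held in 3 of 12 fits with 1 library left out for Rpl22l1, 4 for Rpl12 and 6 for Rps27a. It held in 8 for Rpl39 and Rps27l and in all 12 for Rps14, Rpl22 and Rps27. The WT libraries of Rpl22l1, Rps27a, Rpl39 and Rps27l overlapped between states. In ACAT1 KO cells all these calls held in all 12 fits. Rpl22 went from 500.1, 412 and 459 CPM to 374, 363 and 343 CPM in WT cells, a log2 fold change of -0.34 (SE 0.078, edgeR adjusted p = 0.00244). In ACAT1 KO cells it went from 528, 466 and 503 CPM to 366, 336 and 345 CPM, a log2 fold change of -0.52 (SE 0.0781, edgeR adjusted p = 1.12e-04). The unstimulated and LPS libraries of Rpl22 did not overlap in either genotype.

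Rps27, a zinc-finger protein of the small subunit, went from 991, 776 and 830 CPM to 719, 681 and 652 CPM in WT cells (log2 fold change -0.34, adjusted p = 0.00516 from edgeR) and from 1024, 968 and 952 CPM to 706, 640 and 683 CPM in ACAT1 KO cells (log2 fold change -0.54, adjusted p = 1.94e-04 from edgeR). Its libraries also separated by treatment in each genotype. Rps14 had log2 fold changes of -0.38 (adjusted p = 0.0113 from edgeR) and -0.54 (adjusted p = 0.00117), and Rpl39 of -0.28 (adjusted p = 0.0226) and -0.55 (adjusted p = 2.77e-04), in WT and ACAT1 KO cells. Rpl13a was also lower, at -0.39 (adjusted p = 0.013 from edgeR) in WT, with the doubt on its reads given above.

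Other members did not pass in either genotype, or in 1 of them. The stalk proteins Rplp0 and Rplp2 had log2 fold changes of 0.08 and 0.10 in WT and -0.04 and 0.02 in ACAT1 KO cells, with adjusted p of 0.286 or more from edgeR. Rps6, the target of the S6 kinases, stood at 560, 499 and 606 CPM before and 635, 607 and 553 CPM after LPS in WT cells, so its groups overlapped. Rps4x, an X-linked protein of the small subunit, had a log2 fold change of 0.01 in both genotypes with a standard error of 0.103. Rpl5 and Rpl11, which bind 5S rRNA together, passed in ACAT1 KO cells, at -0.27 (adjusted p = 0.0153 from edgeR) and -0.23 (adjusted p = 0.0259), and in WT cells had values of -0.15 and -0.14 with adjusted p of 0.145 and 0.168. Rps3 and Rps19 were at -0.17 and 0.00 in WT and at -0.32 and -0.17 in ACAT1 KO cells, and of these only Rps3 in ACAT1 KO cells passed (adjusted p = 0.00617 from edgeR).

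The members' difference between the genotypes in response was small and not called for any gene. The interaction of genotype and LPS was negative for 80 of the 86 members, with a median of -0.11. It was negative for 9697 of all 16535 genes tested, with a median of -0.04. Among 77 mitochondrial ribosomal proteins it was negative for 71, with a median of -0.08, so this lean was not particular to the members. In edgeR 0 members passed after adjustment, beside 0.187% of all genes, and DESeq2 and limma-voom likewise called 0 members. An unadjusted p under 0.05 in edgeR was reached by 0 members and by 8.92% of all genes. With a term for the 3 libraries with more antisense counts the median was -0.04, with 64 of 86 negative. Line by line, the members' median change with LPS was 0.06, 0.14 and -0.22 in WT lines 1 to 3 and -0.20, 0.01 and -0.17 in ACAT1 KO lines 1 to 3. The 3 lines at or above 0 were those whose unstimulated library had more antisense counts. The part of that difference in these values was not tested beyond the term above. All 3 of these libraries were unstimulated. With the term, the LPS comparison in WT therefore leaned on 1 unstimulated WT library, replicate 3. That term, added after the data were seen, also raised the number called lower to 21 in WT and 44 in ACAT1 KO cells.

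With 1 start per gene, the RefSeq start nearest to that of the principal mRNA, 19 of the 61 members had a TOP-like start, since 2 of the 21 above had it at another RefSeq start only. In WT cells these 19 had a median log2 fold change after LPS of 0.01, with 5 called lower, and the 42 others one of -0.03, with 6 called lower. In ACAT1 KO cells the medians were -0.05 and -0.14, with 8 and 13 called lower. No test was made of this difference.

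Other genes of the translation machinery were counted in the same way after LPS, where 29.3% of all genes were higher and 28.0% lower in WT cells and 29.5% and 31.2% in ACAT1 KO cells. No test was made of a difference between lists. Of 81 ribosome biogenesis factors, 64 were higher and 5 lower in WT and 62 higher and 5 lower in ACAT1 KO cells, with medians of 0.53 and 0.51. With library totals only the medians were 0.22 and 0.21, with 42 higher in each genotype and 12 and 13 lower. On that scale 3037 and 3074 of all 16535 genes were higher. The direction of the medians held under either scaling. Rrs1, needed for large-subunit assembly, went from 99.3, 117 and 116 CPM to 443, 421 and 363 CPM in WT cells, without overlap, a log2 fold change of 1.88 (SE 0.12, edgeR adjusted p = 9.40e-08). Of 41 initiation factors, 28 were higher and 1 lower in WT cells (median 0.38, or 0.06 with library totals only) and 26 higher and 2 lower in ACAT1 KO cells (median 0.35, or 0.05). Of 13 elongation and termination factors tested, 8 were higher and 1 lower in WT cells (median 0.23, but -0.09 with library totals only) and 6 higher and 1 lower in ACAT1 KO cells (median 0.18, but -0.12). Eef2, itself encoded by a TOP mRNA, had a log2 fold change of 0.09 in WT and 0.04 in ACAT1 KO cells, and did not pass.

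Of 77 mitochondrial ribosomal proteins, 28 were higher and 18 lower in WT cells (median 0.10, but -0.22 with library totals only), and 22 higher and 23 lower in ACAT1 KO cells (median -0.01, or -0.31). Of 21 cytosolic aminoacyl-tRNA synthetases and their cofactors tested, 4 were higher and 9 lower in WT (median -0.15) and 3 higher and 12 lower in ACAT1 KO cells (median -0.24). Of 33 mTORC1 and TOP mRNA regulators tested, 16 were higher and 12 lower in WT cells and 13 and 13 in ACAT1 KO cells. Larp1, which binds the TOP mRNA cap, was higher (log2 fold change 0.66 in WT and 0.88 in ACAT1 KO cells, adjusted p = 2.35e-06 and 1.76e-07 from edgeR), while Sesn1, an inhibitor of mTORC1, was lower (-1.91 and -2.49, adjusted p = 7.02e-09 and 8.76e-10). The check genes of the LPS response rose in 12 of 13 tested in WT and 13 of 13 in ACAT1 KO cells.

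The second question was whether loss of ACAT1 changed these genes. In unstimulated cells 85 members were tested, Rps12l1 being under the filter on low counts. In edgeR 0 passed after adjustment and 5 at an unadjusted p under 0.05, DESeq2 called 4 and limma-voom 0, and 1.91% of all 16440 genes were called. An unadjusted p under 0.05 was reached by 5.88% of the members and 19.7% of all genes. The members' median log2 fold change was 0.07, with 67 above and 18 below 0. That of all genes was 0.00, with 8329 above and 8111 below 0. The lean was not particular to the members. Of 77 mitochondrial ribosomal proteins 65 were above 0, with a median of 0.10. Of 172 rows named as ribosomal protein pseudogenes 122 were, with a median of 0.11. The members' median was 0.015 with a term for the 3 libraries with more antisense counts and -0.003 without WT replicate 2. Within those libraries, the median of ACAT1 KO less WT was -0.01, and within the other 3 unstimulated libraries 0.01. The 5 members at an unadjusted p under 0.05 were Rpl3l, Rps27l, Rps21 and Rpl39, with log2 fold changes of 0.78, 0.35, 0.38 and 0.28, and Rps26 with -0.33, and their adjusted p ran from 0.0972 to 0.24.

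After LPS, 4 members were higher and 4 lower in ACAT1 KO cells in edgeR, or 4.65% each way, beside 5.93% of all 16483 genes higher and 9.12% lower. The members' median was -0.02, with that of all genes at 0.00. Rps26, Rpl41, Rps7 and Rps29 were lower, and Rpl3l, Rps3a3, Rps21 and Rps27l higher. These calls rest on few libraries: leaving out WT replicate 2, ACAT1 KO replicate 2 or ACAT1 KO replicate 3 left 0 members called, leaving out ACAT1 KO replicate 1 left 1 and leaving out WT replicate 3 left 3, while the signs held in each of these fits.

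**Figure D3:**
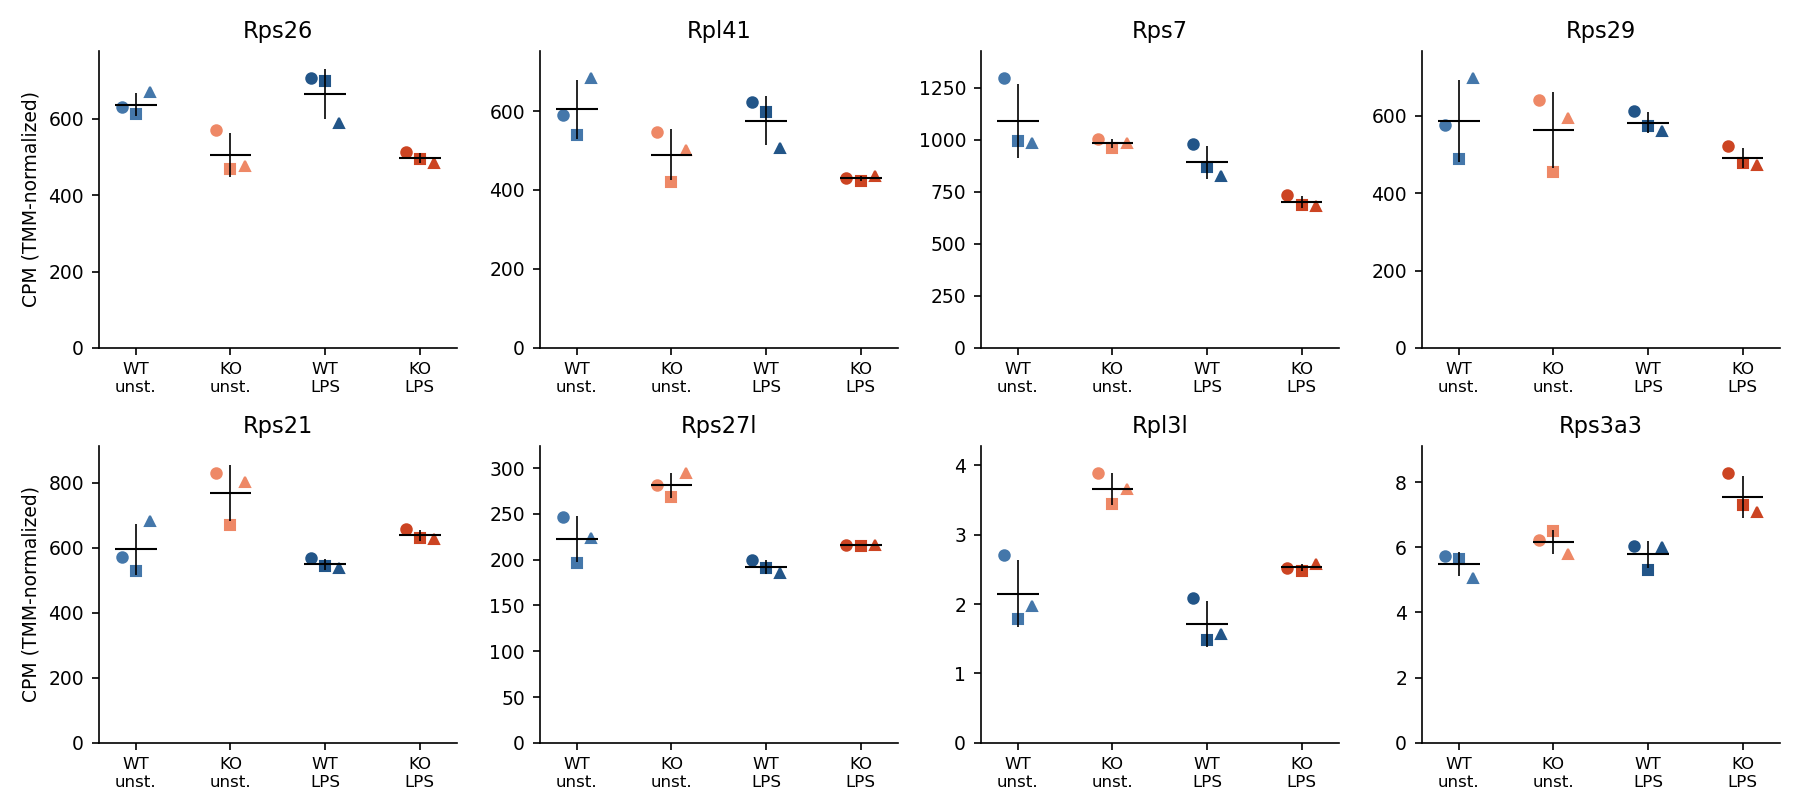
CPM in each library for the 8 members called between genotypes after LPS (unst., unstimulated; LPS, 2 h); points are libraries (circle, replicate 1; square, 2; triangle, 3), horizontal lines means and vertical lines the SD of 3 libraries. Rps26, Rpl41, Rps7 and Rps29 are lower in ACAT1 KO than in WT libraries after LPS and the other 4 are higher, each without overlap.

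Rps26, which lies at the mRNA exit of the small subunit, was at 708, 699.5 and 590.1 CPM in WT and 514, 494 and 486 CPM in ACAT1 KO cells after LPS. Unstimulated it was at 631, 612 and 670.1 CPM in WT and 571, 469 and 476 CPM in ACAT1 KO cells. The genotypes did not overlap in either state. The log2 fold change was -0.40 after LPS (SE 0.0772, edgeR adjusted p = 0.0155) and -0.33 unstimulated (SE 0.0925, edgeR adjusted p = 0.123).

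Rpl41, the smallest ribosomal protein, was at 622, 599 and 506 CPM in WT and at 431, 422 and 436 CPM in ACAT1 KO cells after LPS, a log2 fold change of -0.40 (SE 0.0799, edgeR adjusted p = 0.0168). Its unstimulated libraries overlapped, at 590, 538 and 684 against 548, 421 and 501 CPM. Rpl41 lies on chromosome 10 from 128548114 to 128549305 and Rps26 from 128624534 to 128626747 (GRCm38), 76.4 kb apart. Rps7 (chromosome 12 from 28630854) was at 981, 872 and 824 CPM in WT and 733, 689 and 682 CPM in ACAT1 KO cells after LPS, a log2 fold change of -0.33 (adjusted p = 0.0268 from edgeR). Rps29, a small zinc-finger protein (chromosome 12 from 69157722), was at 613, 574 and 560.3 against 522, 479.6 and 474 CPM, a log2 fold change of -0.22 (adjusted p = 0.0496 from edgeR). Neither gene's unstimulated libraries separated by genotype.

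Genes around these members were compared next. Within 2 Mb of Rps26, the median log2 fold change of the 81 other genes tested after LPS was -0.32, with 74 below 0 and 43 called lower. Unstimulated it was -0.30 over 84 genes, with 75 below 0. On the whole of chromosome 10 the median of other genes was -0.05 after LPS. For Rps7 and Rps29 the lower level extended over the chromosome: the median of 582 other genes on chromosome 12 was -0.28 after LPS and -0.26 unstimulated. These 2 are the only members on chromosome 12.

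Rps21, a protein of the small subunit, lies near the end of chromosome 2 (from 180257377) and was at 568, 544 and 536 CPM in WT and 657, 629 and 627 CPM in ACAT1 KO cells after LPS, a log2 fold change of 0.24 (SE 0.0543, edgeR adjusted p = 0.0262). The 49 other genes within 2 Mb had a median of 0.21, with 41 above 0, close to the median of 0.19 of all 1230 other genes tested on chromosome 2, of which 912 were above 0. Unstimulated the chromosome's median was also 0.19. The remaining members on chromosome 2, Rpl12, Rpl7a and Rpl35, lie between 26910764 and 39005624, and had log2 fold changes of 0.01, 0.05 and 0.00 after LPS, with medians of 0.00, 0.09 and 0.02 for the genes within 2 Mb of each. So 5 of the 8 called members sat among neighbours that differed in the same direction by at least 0.2 in the median. The sixth member in such surroundings, the pseudogene Rpl6l, was at 0.15 with neighbours at -0.29. Whether the members followed their regions or the regions differ for another reason was not tested.

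**Figure D4:**
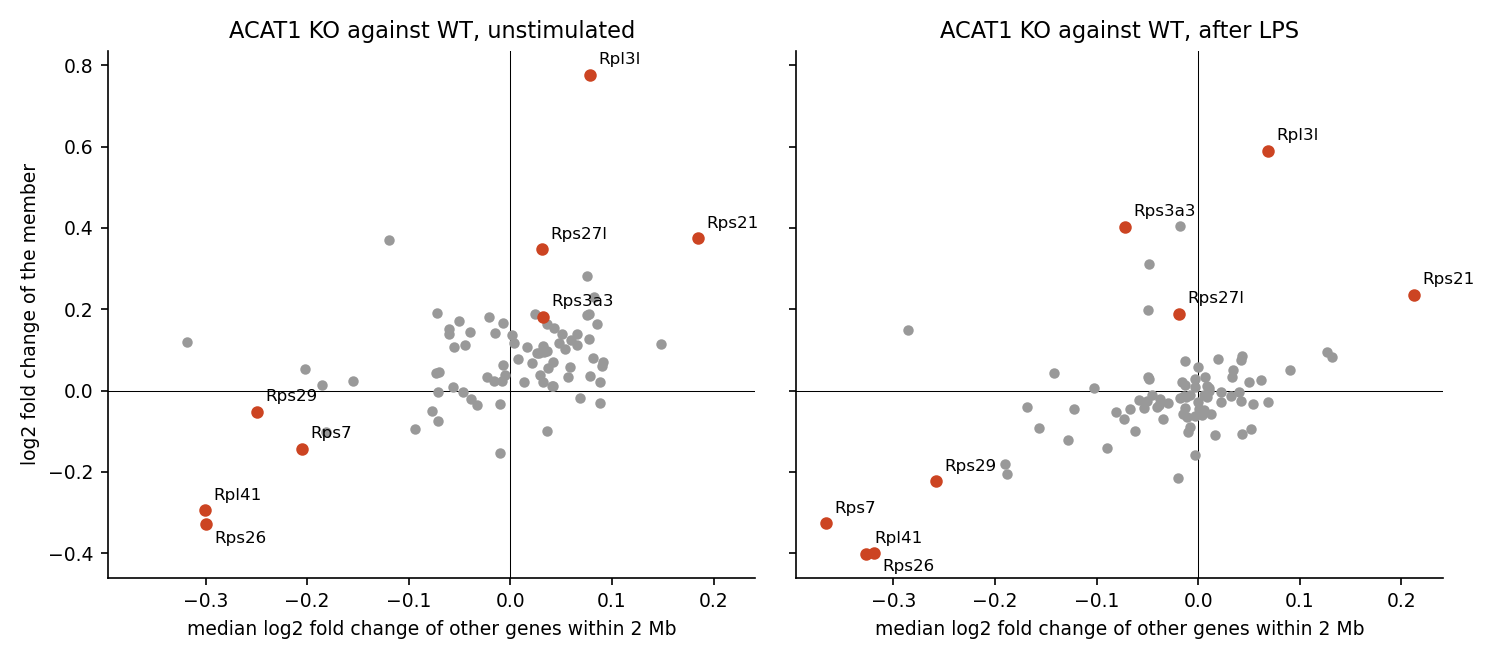
Log2 fold change of ACAT1 KO against WT for each member with at least 5 other genes tested within 2 Mb (vertical axis) against the median of those genes (horizontal axis), unstimulated (left, 84 members) and after LPS (right, 85 members); red points are the 8 members called after LPS. Rps26, Rpl41, Rps7 and Rps29 lie at the lower left and Rps21 at the right of the panel after LPS, while Rpl3l, Rps27l and Rps3a3 lie high with neighbours within 0.1 of 0.

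Over the 85 members with at least 5 such neighbours, Pearson's r between a member and the median of its neighbours was 0.488 after LPS (Spearman's rho 0.378) and 0.462 unstimulated over 84 members (rho 0.36), a description across genes that in part share neighbours.

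The 3 other called members had no such surroundings. Rps27l, a p53 target and paralogue of Rps27, was at 200.1, 190.5 and 185 CPM in WT and 216, 215 and 216 CPM in ACAT1 KO cells after LPS, a log2 fold change of 0.19 (SE 0.0509, edgeR adjusted p = 0.0422), with neighbours at -0.02. Unstimulated it was at 247, 197 and 224 against 281, 268 and 295 CPM, also without overlap. Rpl3l was at 2.09, 1.48 and 1.57 CPM in WT and 2.53, 2.48 and 2.58 CPM in ACAT1 KO cells after LPS, a log2 fold change of 0.59 (SE 0.152, edgeR adjusted p = 0.0369).

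Rps3a3, annotated as a processed pseudogene, was at 6.04, 5.31 and 6.01 CPM in WT and at 8.29, 7.29 and 7.08 CPM in ACAT1 KO cells after LPS, a log2 fold change of 0.40 (SE 0.0995, edgeR adjusted p = 0.0326). It shares 31.3% of its 100-base stretches with Rps3a2, which stands at 93.2 CPM, and 18.4% with Rps3a1, which stands at 1168 CPM, so its reads are uncertain. Rows of processed pseudogenes were higher as a class in these cells: the median of the 170 rows named as ribosomal protein pseudogenes was 0.31 after LPS, with 141 above 0, and that of 2034 other processed pseudogenes 0.28, with 1632 above 0. Unstimulated the medians were 0.11 and 0.08. Among the 5 member pseudogenes 4 were above 0 after LPS, with a median of 0.31.

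The paralogue pairs were compared within a library, where the scaling of the library cancels. For 4 pairs both genes were listed, and 16 comparisons were made by the exact permutation test, in which 3 against 3 libraries cannot go below p = 0.1 and the adjusted p not below 0.16. Rpl7l1 was at 7.65% ± 0.433 (SD, n = 3) of the CPM of Rpl7 in unstimulated WT and at 16.4% ± 0.797 (SD, n = 3) after LPS, and at 9.23% ± 0.486 and 20.1% ± 1.60 (SD, n = 3) in ACAT1 KO cells. Its log2 ratio differed by 1.103 with LPS in WT and 1.119 in ACAT1 KO cells, and by 0.27 and 0.29 between genotypes unstimulated and after LPS, all without overlap and with an exact p = 0.1. The genotype part goes with Rpl7, at -0.15 and -0.22, more than with Rpl7l1, at 0.12 and 0.07, and neither gene was called.

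Rps27l was at 25.7% ± 1.07 of Rps27 in unstimulated WT and 28.7% ± 1.97 in ACAT1 KO cells, and at 28.1% ± 0.323 and 31.9% ± 1.48 after LPS (SD, n = 3 each). The log2 ratio was higher in ACAT1 KO cells by 0.16 and 0.18, without overlap (exact p = 0.1). Rpl3l was at 0.214% ± 0.0423 of Rpl3 in unstimulated WT and 0.387% ± 0.0115 in ACAT1 KO cells (SD, n = 3 each), a log2 difference of 0.87 without overlap, and of 0.72 after LPS. Rpl22l1, which Rpl22 represses in other cells, was at 39.8% ± 5.62 of Rpl22 in unstimulated WT and 39.7% ± 3.23 after LPS (SD, n = 3 each). In ACAT1 KO cells it was at 47.3% ± 2.59 unstimulated and 46.5% ± 3.34 after LPS (SD, n = 3 each). The log2 ratio was higher in ACAT1 KO cells by 0.26 unstimulated and 0.23 after LPS, with overlap (exact p = 0.2 for each). Both genes were called lower with LPS, though the WT libraries of Rpl22l1 overlapped between states. The log2 ratio of the pair differed by 0.00 in WT and -0.03 in ACAT1 KO cells, with overlap (exact p = 1 and 0.7).

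**Figure D5:**
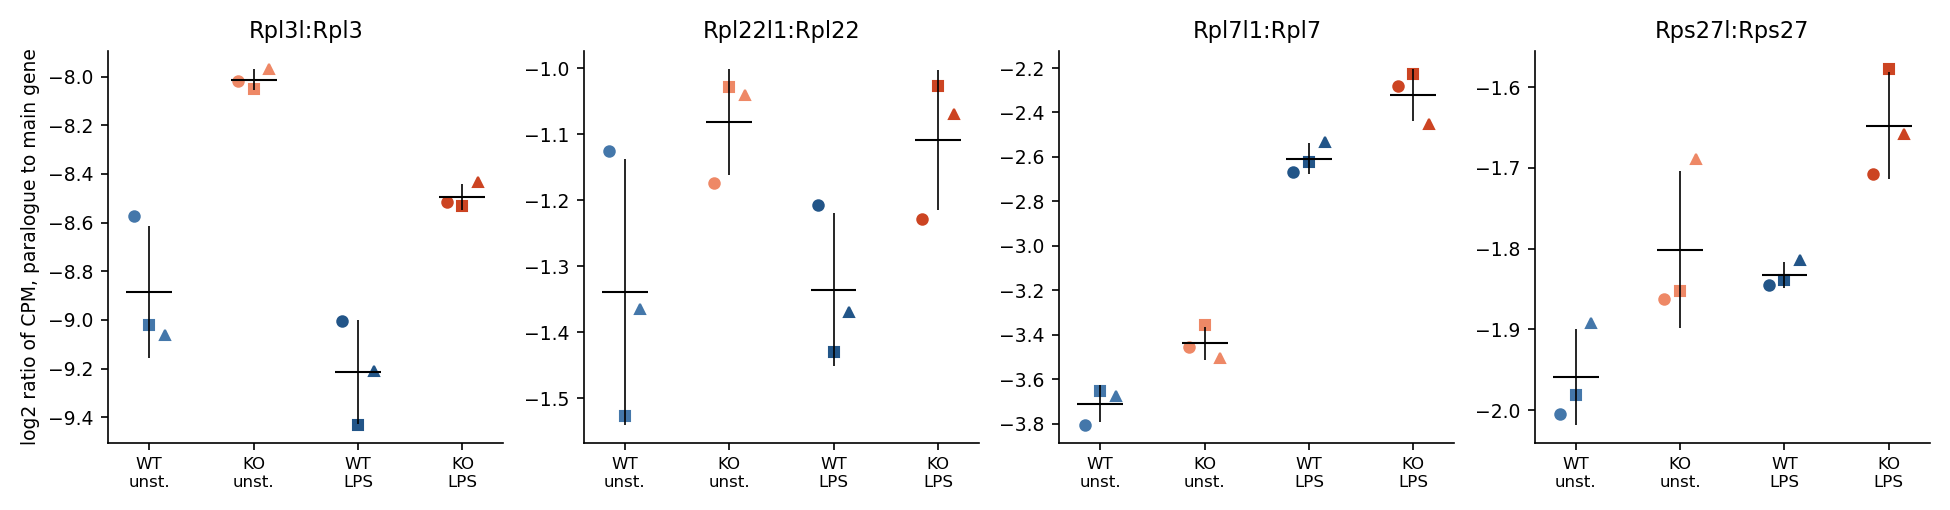
Log2 ratio of the CPM of a paralogue to that of the main gene in each library, for the 4 pairs listed in both tables (unst., unstimulated; LPS, 2 h); points are libraries (circle, replicate 1; square, 2; triangle, 3), horizontal lines means and vertical lines the SD. The Rpl7l1 to Rpl7 ratio lies about 1.1 higher after LPS in both genotypes, and the Rpl22l1 to Rpl22 ratios of the treatments overlap.

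Other genes of translation were compared between genotypes in the same way. Of all genes tested, 5.93% were higher and 9.12% lower in ACAT1 KO cells after LPS, and 1.91% were called unstimulated. No test was made of a difference between a list and all genes. After LPS 0 of 33 mTORC1 and TOP mRNA regulators tested were higher and 5 lower in ACAT1 KO cells, namely Myc, Sesn1, Max, Castor1 and Mlst8, named here after their values were seen. Myc, a transcription factor that drives ribosome biogenesis genes, was at 28.7, 29.1 and 28.7 CPM in WT and 19.6, 20.4 and 19.4 CPM in ACAT1 KO cells after LPS, a log2 fold change of -0.52 (SE 0.0552, edgeR adjusted p = 0.00269). Of 81 ribosome biogenesis factors, 5 were higher and 1 lower in ACAT1 KO cells after LPS, with a median of 0.02, and of 77 mitochondrial ribosomal proteins 4 were higher and 1 lower, with a median of 0.05. Of 41 initiation factors 4 were higher and 4 lower, of 21 synthetases and cofactors 1 was higher and 3 lower, and of 13 elongation and termination factors 0 were higher and 1 lower. Unstimulated, these 6 lists, with the regulators, held 1 gene called higher and 1 called lower.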

How the data were processed

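Directional libraries made from total RNA of J774A.1 cells were sequenced by the authors, who deposited a table of whole-number counts per gene for the unstimulated and another for the LPS-treated cells, 6 libraries each. The submitters' processing notes name Trimmomatic 0.33, HISAT2, StringTie and the build GRCm38, and the step that turned assembled transcripts into whole counts and its strand setting are not given in the sources used here. The same tables hold 12 columns of log2 values per library and the authors' own fold changes and p-values, which were not used. Repeated rows (59 and 57) were removed. The members and gene lists were chosen with earlier results of these data known.

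Counts were fitted as deposited with edgeR 4.0.16 (glmQLFit and glmQLFTest, TMM, filterByExpr) in R 4.3.3, genotypes within each table and LPS over all 12 libraries, with Benjamini-Hochberg adjustment over all genes tested and a threshold of 0.05. Ribosomal shares and paralogue ratios were compared with a two-sided exact permutation test. Alternatives were other scalings and filters, DESeq2 1.42.0, limma-voom (limma 3.58.1), a robust fit, and length and GC offsets. A replicate block, a batch term and each library left out were also tried. No label gives a batch: that term marked the unstimulated libraries with more antisense counts and was chosen from the data. It marked no LPS library and left 1 unstimulated WT library unmarked, on which the LPS comparison in WT with this term leans. Totals of 56948593 to 167280149 counts make counting error small, for most members, beside the spread between libraries, which p-values measure. This does not hold in every group for members with low counts, such as Rpl3l, Rpl24 and Rps12l1. The fits were tested on simulated data. Of 67 genes changed by 0.5 log2 units, 13 were recovered between genotypes unstimulated and 30 after LPS. For LPS in WT, LPS in ACAT1 KO cells and the interaction, 19, 31 and 10 of 67 were recovered. Of 66 genes changed by 2 log2 units, 47 to 63 were recovered. False calls were 3.6 to 7.14% of those made. The changed genes were drawn from all genes passing the filter, whatever their level. Every other gene was left unchanged, and lines were not paired. These shares are therefore not recovery rates of the members, though small changes in members can be missed. Gene models were from GENCODE on GRCm38 and start sequences from RefSeq, with 20 protein-coding members not matched.

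Named members were those given a role in a fixed table, the 3 with the smallest p each way per comparison and the 3 highest and 3 lowest per kb. Same-numbered libraries of the 2 states of a genotype deviated together (correlations of 0.28 to 0.514 over 11737 genes, all 6 pairs above 0.1), so the numbers were taken to pair states, from the data. Those of the 2 genotypes ran from -0.135 to 0.546 and did not. One short list of related genes is not reported here.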

Additional observations from a re-analysis of the deposited data

How the results depend on the processing

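With the replicate block 0, 7, 18, 35 and 0 members were called in the comparisons of genotypes unstimulated, genotypes after LPS, LPS in WT, LPS in ACAT1 KO and the interaction, against 0, 8, 15, 31 and 0 without it. Between genotypes unstimulated, DESeq2 called 4, a fit of all 12 libraries 4 and a batch term 1. After LPS, the genotypes gave 5 with length and GC offsets, 4 with these and the block, and 4 in a fit of all 12 libraries. Leaving out 1 library gave 0 to 9. For LPS in WT, 51 were called with upper-quartile scaling, 70 with library totals only, 31 with length and GC offsets, 36 with these and the block, 23 with the batch term and 49 with that term and the block, and 7 to 20 with 1 library left out. Medians there were -0.22, -0.33, -0.16 and -0.18 with upper-quartile scaling, library totals, the batch term and that term with the block. For LPS in ACAT1 KO cells, 57 were called with upper-quartile scaling and 76 with library totals (medians -0.29 and -0.44), 47 with length and GC offsets and the block, 48 with the batch term and 61 with that term and the block, and 22 to 40 with 1 library left out. The Rpl3l to Rpl3 log2 ratio on the log2(CPM + 1) scale differed by 0.66 and 0.53 between genotypes and by -0.35 with LPS in ACAT1 KO cells.

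Values that changed sign and passed the threshold in 1 of the fits compared were the following. In WT after LPS, Rpl3 and Rplp1 were at -0.20 and -0.20 with upper-quartile scaling, and with library totals Rpl3 was at -0.31, Rpl32 -0.28, Rplp0 -0.23, Rplp1 -0.31, Rplp2 -0.21, Rps26 -0.25, Rps4x -0.31 and Rps6 -0.21. Rpl32 was at -0.19 with the batch term and block. In ACAT1 KO cells with library totals Rpl10 was at -0.25, Rplp2 -0.28, Rps2 -0.20, Rps3a3 -0.013, Rps4x -0.29 and Rps6 -0.27. Over all single genes and settings, 4161 values stayed on their side of the threshold, 116 passed it newly, 126 lost it and these 17 reversed. Of the 4161, 237 changed sign without passing in either fit, 106 of them with 1 library left out and 131 under other settings. Library totals moved the median of all genes to -0.33 in both genotypes. The cause was not tested. The 2 states were in separate tables, and 3 libraries a group limit what can be detected.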
